A study of Rattus norvegicus with 24 samples.

Results

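The genes described here are Hmox1, the inducible heme oxygenase, together with Nfe2l2, the gene of the transcription factor NRF2, and 6 genes that NRF2 is known to switch on: Nqo1, Gclm, Gclc, Txnrd1, Srxn1 and Slc7a11. They were chosen by gene symbol, and the values of all transcripts with 1 symbol were added up. Of the 8 genes named, 6 had a row among the 15273 genes of the transcript table, and all 6 passed the filter on low values that left 11196 genes for testing. Srxn1 and Slc7a11 were not analysed here. The tissue was tibialis anterior of Wistar rats, male by the study's methods, which also state a mean age that is not repeated here. An implanted pulse generator stimulated the left leg in 1 daily session of resistance contractions, so that the left muscle was trained for 2, 10, 20 or 30 days. The right, unstimulated muscle of the same animal was the contralateral control. There were 12 animals, 3 for each duration, and muscles were taken 1 h after the last session. The 12 contralateral muscles formed 1 control group for the main tests.

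NRF2 is held in the cytoplasm by KEAP1, an adaptor that hands it to the CUL3 ubiquitin ligase for destruction. Oxidants and electrophiles modify KEAP1, and NRF2 then enters the nucleus, pairs with a small MAF protein and binds antioxidant response elements near genes for glutathione synthesis, quinone reduction and thioredoxin recycling. Hmox1 is also held down by BACH1, which competes for the same elements and lets go when heme binds it. The enzyme it encodes cuts heme into biliverdin, carbon monoxide and iron, and macrophages that take up heme are a known site of its expression. NRF2 is controlled largely as a protein, so a transcript level does not report its activity.

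The core of the antioxidant response element was looked for in the promoters of the measured genes, since NRF2 acts through it. The search used TGACNNNGC on both strands, in RefSeq windows of build GRCr8 that hold 250 bases before and 50 after each annotated start. Of the 6 measured genes, 5 had a window in that set, 6 windows in all because Txnrd1 has 2; Hmox1 had none. These letters were found for Gclm, for 1 of the 2 starts of Txnrd1 and for Nfe2l2, against 12.1% of all 33469 windows. Each stretch is given 5′ to 3′ on the strand of its gene, with the matching letters in capitals.
Gclm, chr2:213031937-213031996, plus strand, match on the reverse strand: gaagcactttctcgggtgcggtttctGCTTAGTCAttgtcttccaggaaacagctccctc
Txnrd1, chr7:22755949-22756008, minus strand, match on the reverse strand: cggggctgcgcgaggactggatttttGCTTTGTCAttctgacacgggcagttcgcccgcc
Nfe2l2, chr3:81028950-81028979, minus strand, match on the forward strand: actgctccgactagccatTGACGCCGCctc
The first base of the match lay at position -172 from the start for Gclm, at -78 for Txnrd1 and at 39 within the transcribed part for Nfe2l2. The windows of Nqo1 and Gclc held no match, which says only that these letters are not in those 300 bases. A match is a description of sequence and not a measured binding site.

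Deposited values were on a TPM-type scale, per transcript length and with 1 common total for the 24 muscles. Sequencing depth cannot be read from them, so the precision set by depth is unknown. Each muscle was divided by a median-of-ratios factor, between 0.778 and 1.14, and the results are called rescaled values below. Mitochondrial transcripts made up 23.7% to 44.6% of the deposited total. That share was 40.4% to 44.6% in the 3 muscles trained for 30 days and 28.1% to 44.2% in controls. It was 25.3% to 28.8% at 2 days, 23.7% to 27.7% at 10 days, below every control, and 31.5% to 36.0% at 20 days. Among controls, replicate 1 of the 30-day controls stood apart at 44.2%. Without that control muscle each of the 6 genes kept its call at each duration. On the deposited values without rescaling, the median change of all genes at 30 days was -0.18 on the log2 scale instead of -0.01, and 20.0% of the calls were higher in trained muscle instead of 54.0%. At 2 and 10 days 74.5% and 75.45% of the calls were higher on that scale, instead of 53.4% and 53.9%.

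For each gene, limma compared log2(value + 1) between groups, and a gene was called when its p-value, adjusted by Benjamini-Hochberg over all 11196 genes, was below 0.05. After 2 days 4 of the 6 genes were called, all higher in trained muscle, where 28.9% of all genes were called. After 10 days 4 were called, 3 higher and 1 lower, beside 28.9% of all genes. The count was 3 at 20 days, 2 higher and 1 lower, beside 21.4% of all genes, and 2 at 30 days, both higher, beside 20.6%. Split by direction, the shares of all genes called higher were 15.4%, 15.6%, 11.7% and 11.1%, and those called lower were 13.5%, 13.3%, 9.64% and 9.46%. The median log2 fold change over the 6 genes was 0.27, 0.25, 0.08 and 0.16 at the successive durations, and that over all genes was -0.01, -0.03, -0.03 and -0.01. Hmox1 and Nfe2l2 were called at all 4 durations. With each trained muscle set against its own contralateral muscle, which makes animal a block, the counts were 2, 3, 2 and 2. The 2-day calls of Nfe2l2 and Txnrd1, the 10-day call of Gclc and the 20-day call of Nqo1 were lost in that fit.

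**Figure D1:**
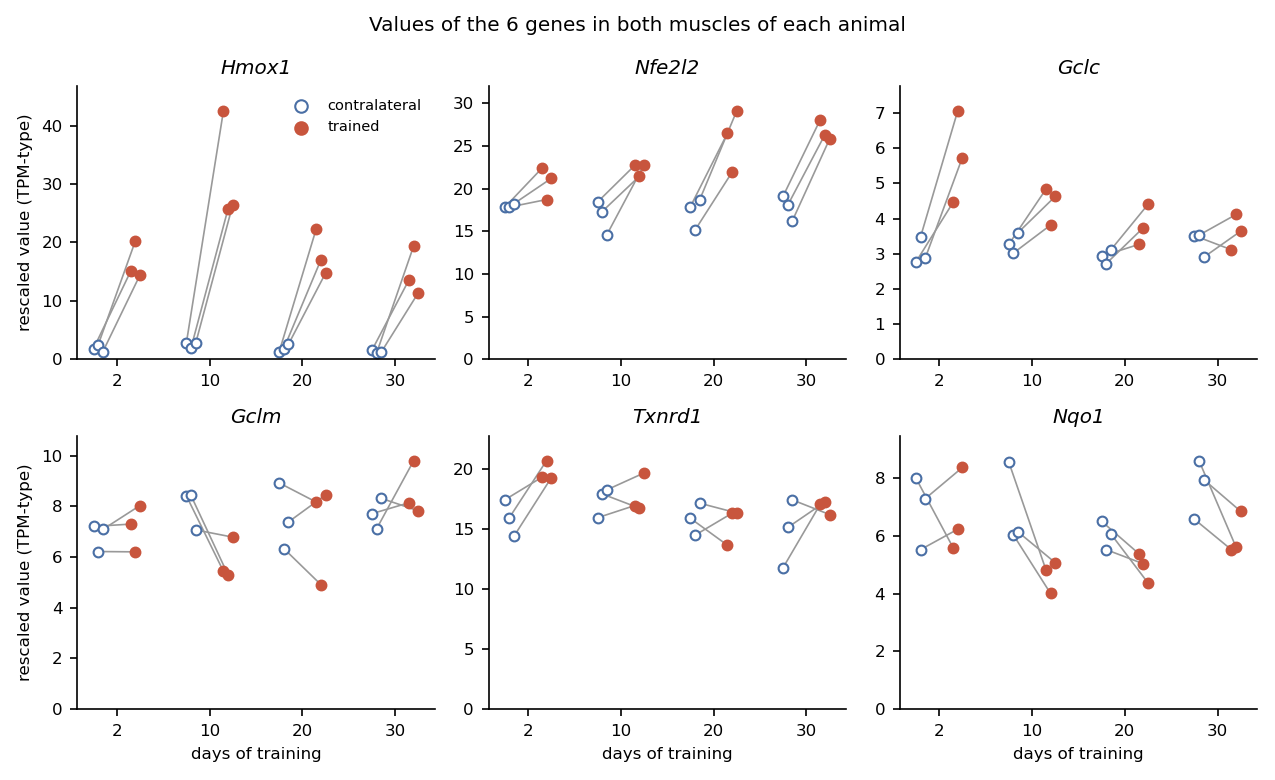
Rescaled values (vertical axes, TPM-type, starting at 0) of the 6 genes against days of training. Each line joins the contralateral muscle (open circle) and the trained muscle (filled circle) of 1 animal; all 12 lines rise for Hmox1 and for Nfe2l2, while 10 of 12 fall for Nqo1.

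Hmox1 (heme oxygenase 1, 1 transcript at Rnor_6.0 chr19:14508616-14515457, plus strand) was the member with the greatest change at every duration. In the 12 control muscles its rescaled value was lowest at 1.03, had a median of 1.81 and was highest at 2.75. The 3 trained muscles stood at 15.1, 20.2 and 14.4 after 2 days, and at 42.5, 25.8 and 26.4 after 10 days. At 20 days they stood at 22.3, 17.0 and 14.7, and at 30 days at 13.6, 19.4 and 11.4. Every trained muscle lay above every control muscle, the lowest at 11.4 against 2.75 for the highest control. The ratio of a trained muscle to the contralateral muscle of the same animal was above 1 in 12 of 12 animals, with a lowest value of 5.79, a median of 9.65 and a highest value of 18.9. The log2 fold change was 2.64 at 2 days (standard error 0.19, adjusted p = 4.59e-10), 3.51 at 10 days (adjusted p = 4.19e-12), 2.75 at 20 days (adjusted p = 4.29e-10) and 2.47 at 30 days (adjusted p = 3.57e-09). Since 1 was added to values near 1 to 3 in controls, these fold changes understate the ratios. Among the 11196 genes tested, the change of Hmox1 had ranks of 39, 17, 20 and 17 from the top at the successive durations. In bulk muscle, more cells of a type that expresses a gene and more of its RNA per cell cannot be told apart. The p-values rest on the spread between muscles within the 5 groups of the main fit. That fit leaves out that each animal gave both a trained and a control muscle.

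**Figure D2:**
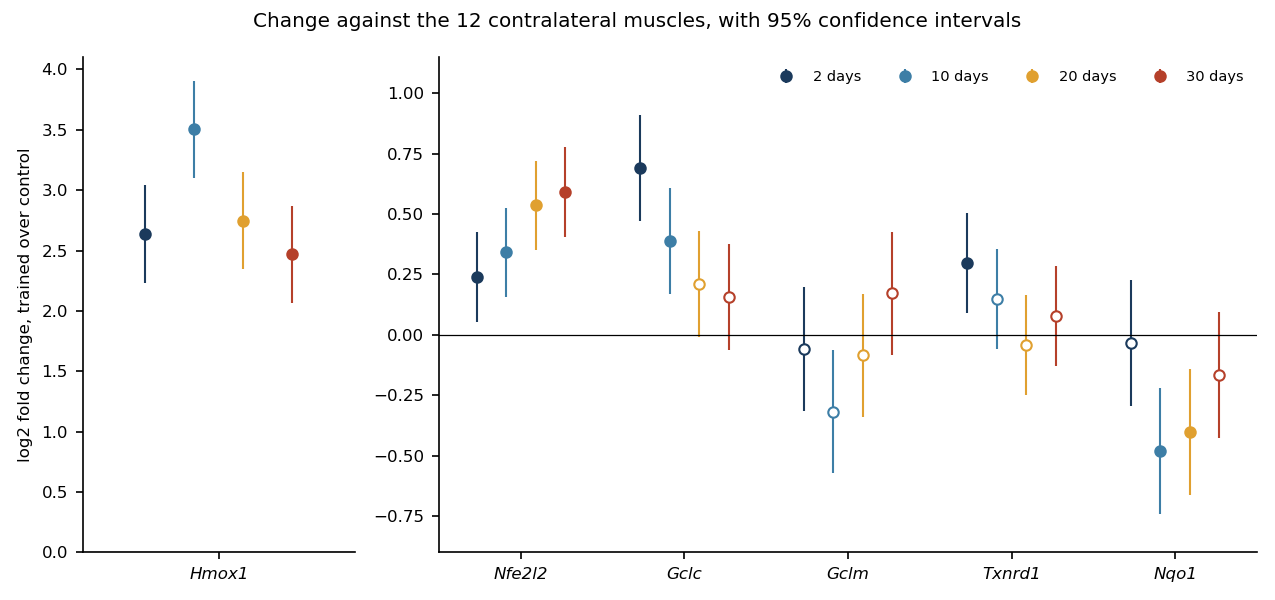
Log2 fold change of each gene against the 12 contralateral muscles (vertical axes, Hmox1 on its own scale) at 2, 10, 20 and 30 days, with 95% confidence intervals from limma. Filled points passed the adjusted threshold of 0.05; Hmox1 lies between 2.47 and 3.51 at every duration, and the other 5 genes lie between -0.48 and 0.69.

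Nfe2l2, which encodes NRF2 itself (1 transcript, chr3:62497571-62524997, minus strand), was called higher at all 4 durations, by less than Hmox1. Controls ranged from 14.6 to 19.1 with a median of 17.9. Trained muscles stood at 22.4, 18.7 and 21.2 after 2 days, at 22.7, 21.5 and 22.8 after 10 days, at 26.5, 21.9 and 29.1 after 20 days and at 28.1, 26.3 and 25.8 after 30 days. The groups overlapped at 2 days through 1 trained muscle and did not overlap at the other durations. The trained muscle was the higher one in 12 of 12 animals, by ratios of 1.05 to 1.59. The log2 fold change was 0.34 at 10 days (standard error 0.09, adjusted p = 0.00547), 0.54 at 20 days (adjusted p = 0.000107) and 0.59 at 30 days (adjusted p = 4.61e-05). The 2-day value of 0.24 passed narrowly (adjusted p = 0.0475); with animal as a block it was 0.20 (adjusted p = 0.218), and with 1 muscle left out at a time it lost its call in 11 of 15 fits, with values between 0.19 and 0.31. On the deposited values the log2 fold changes were 0.35, 0.46, 0.53 and 0.38 at the successive durations, all of them called, so their order depended on the scaling. Relative to the median change of all genes on that scale they were 0.27, 0.39, 0.56 and 0.56.

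Gclc and Gclm encode the catalytic and the modifier subunit of glutamate-cysteine ligase, the enzyme of the rate-limiting step of glutathione synthesis, and their transcripts differed in course. Gclc (chr8:85059051-85097469, plus strand) ranged from 2.72 to 3.60 in controls, with a median of 3.06. Its trained values were 4.46, 7.06 and 5.73 after 2 days and 4.83, 3.81 and 4.63 after 10 days, all above the controls. At 20 days they were 3.26, 3.74 and 4.40, and at 30 days 3.11, 4.12 and 3.64, overlapping the controls at both durations. Gclc rose by 0.69 on the log2 scale at 2 days (standard error 0.11, adjusted p = 2.65e-05) and at 10 days by 0.39 (adjusted p = 0.00712). The 10-day call was lost with animal as a block (0.33, adjusted p = 0.0615) and without trained replicate 1 of that duration (0.33, adjusted p = 0.0674). The values of 0.21 at 20 days (adjusted p = 0.168) and 0.16 at 30 days (adjusted p = 0.319) did not pass.

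Gclm (chr2:225827504-225847875, plus strand) ranged from 6.21 to 8.92 in controls, with a median of 7.29. Trained values were 7.30, 6.20 and 8.03 at 2 days, 5.44, 5.29 and 6.78 at 10 days, 8.16, 4.91 and 8.45 at 20 days and 8.14, 9.80 and 7.82 at 30 days. Trained and control muscles overlapped at every duration, although at 10 days all 3 trained muscles were below their own contralateral muscle. No duration passed the threshold, with log2 fold changes of -0.06, -0.32, -0.08 and 0.17. The 10-day value came closest (95% confidence interval -0.57 to -0.06, adjusted p = 0.0560), and it passed without control replicate 2 of the 2-day animals (-0.34, adjusted p = 0.0402), without control replicate 2 of the 20-day animals (-0.34, adjusted p = 0.0453) or without trained replicate 3 (-0.41, adjusted p = 0.0388).

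Txnrd1 encodes the cytosolic thioredoxin reductase, a selenoprotein that keeps thioredoxin reduced. It was summed over 2 transcripts, the longer at chr7:26946125-26984401 and the shorter at chr7:26946125-26983173, both on the minus strand, with mean rescaled values over 24 muscles of 14.7 and 2.02. The summed value ranged from 11.8 to 18.3 in controls, with a median of 16.0, and was 19.3, 20.7 and 19.3 after 2 days, above all controls. At 10 days it was 17.0, 16.8 and 19.7, at 20 days 13.7, 16.3 and 16.4, and at 30 days 17.1, 17.3 and 16.2, within or overlapping the controls. The 2-day rise of 0.30 on the log2 scale passed (standard error 0.10, adjusted p = 0.0285). That call was lost with animal as a block (0.30, adjusted p = 0.115), with the longer transcript alone (0.22, adjusted p = 0.163) and without trained replicate 1, 2 or 3 of that duration (0.31, 0.26 and 0.31, adjusted p = 0.0513, 0.160 and 0.0726). The later values were 0.15, -0.04 and 0.08, and none passed.

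Nqo1, the quinone reductase often used as a readout of NRF2 activity, was the only member called lower (chr19:38422164-38437181, plus strand). Controls ranged from 5.53 to 8.62 with a median of 6.55. Trained muscles stood at 5.60, 6.24 and 8.38 after 2 days, at 4.84, 4.01 and 5.08 after 10 days, at 5.39, 5.04 and 4.38 after 20 days and at 5.53, 5.61 and 6.86 after 30 days. All trained muscles lay below all controls at 10 and 20 days, and the groups overlapped at 2 and 30 days. The trained muscle was the lower one in 10 of 12 animals, including 3 of 3 at each of 10, 20 and 30 days. Nqo1 fell by 0.48 on the log2 scale at 10 days (standard error 0.13, adjusted p = 0.00567) and by 0.40 at 20 days (adjusted p = 0.0237), while -0.03 at 2 days and -0.17 at 30 days did not pass. The 10-day call was lost without trained replicate 2 (-0.40, adjusted p = 0.0610). The 20-day call was lost with animal as a block (-0.25, adjusted p = 0.268), without trained replicate 2 (-0.42, adjusted p = 0.0662) and without trained replicate 3 (-0.33, adjusted p = 0.130).

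The trained groups were then compared with one another, to ask whether the members changed with longer training. No member was called at 10 against 2 days, 20 against 10 days or 30 against 20 days in the limma fit, where 1.93%, 0.17% and 0.0357% of all genes were called; at an unadjusted p below 0.05 there were 3, 1 and 0 of the 6. At 30 against 2 days 2 were called beside 15.0% of all genes. Gclc was lower at 30 days (log2 difference -0.53, standard error 0.13, adjusted p = 0.00836) and Nfe2l2 higher (0.35, adjusted p = 0.0369). On the deposited values the Nfe2l2 difference was 0.03 (adjusted p = 0.900), so its call rested on the rescaling. Relative to the median change of all genes on the deposited scale, Nfe2l2 stood at 0.27 at 2 days and 0.56 at 30 days. Contrasts of 20 against 2 and 30 against 10 days were added after the group values had been seen. Gclc was called in the first of them (-0.48, adjusted p = 0.0268), beside 8.05% of all genes, and Hmox1 in the second (-1.04, standard error 0.25, adjusted p = 0.0206), beside 3.94%. When the difference was formed from trained over contralateral changes with animal as a block, no member passed in any of the 6 contrasts. The Hmox1 difference was then -0.43 (adjusted p = 0.619), and its mean in control muscles was 2.45 ± 0.47 (SD, n = 3) at 10 days and 1.26 ± 0.26 (SD, n = 3) at 30 days. Between the 4 groups of control muscles no member was called by the limma F test (0 also at an unadjusted p below 0.05), beside 0.0625% of all genes; Hmox1 had the lowest adjusted p, 0.480, at an unadjusted p of 0.0545.

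The partners and regulators of NRF2 were taken from a list of 12 genes, of which 11 were tested. At 2 days 3 were higher and 1 lower, at 10 days 3 and 1, at 20 days 2 and 1, and at 30 days 2 and 0, with list medians of 0.21, 0.25, 0.00 and 0.10. Beside this list and each list below, 15.4%, 15.6%, 11.7% and 11.1% of all genes were called higher at the successive durations. Those called lower were 13.5%, 13.3%, 9.64% and 9.46%. Whether a list departed from these shares was not tested. Maff and Mafk, which encode small MAF proteins that pair with NRF2 or with BACH1, were higher at all 4 durations. Maff stood at 0.971 to 3.34 in controls and at 17.5 to 23.4 after 2 days, with log2 fold changes of 3.13, 3.40, 2.58 and 2.22 (adjusted p = 1.88e-09, 5.24e-10, 6.77e-08 and 9.61e-07). Mafk stood at 6.70 to 15.2 in controls and at 29.0 to 40.3 after 2 days, with log2 fold changes of 1.71, 1.59, 1.49 and 0.92. Trained and control muscles did not overlap for either gene at any duration. Sqstm1, the autophagy receptor p62 that binds KEAP1, passed at 2 days and not later, and was then higher (0.53, adjusted p = 0.000641). Bach1 was higher at 10 days (0.64, adjusted p = 0.0183), but not with animal as a block (0.53, adjusted p = 0.147). Cul3, outside the 4 genes that the naming rule gives and chosen after its values were seen, was the 1 gene called lower, at 2, 10 and 20 days (-0.33, -0.51 and -0.46; at 2 days -0.29 with adjusted p = 0.133 with animal as a block). Keap1, also outside that rule, had values of -0.09, -0.19, -0.18 and -0.24 and did not pass. On the deposited values 3 genes of the list were called lower at 30 days, against 0 after rescaling.

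The glutathione genes beyond the ligase moved in both directions. Of 13 genes tested in a list of 16, 4 were higher and 1 lower at 2 days, 5 and 3 at 10 days, 4 and 2 at 20 days and 4 and 3 at 30 days, with list medians of -0.03, 0.04, 0.05 and 0.13. Gpx1, the main cytosolic glutathione peroxidase, rose at all 4 durations, from 94.1 to 138 in controls to 408 to 485 after 10 days (log2 fold changes of 1.24, 1.94, 1.35 and 0.88, all adjusted p at or below 0.000153). Gpx3, the secreted plasma form, rose at 10, 20 and 30 days (0.76, 1.02 and 1.14). With animal as a block it was called higher at 2 days as well (0.40, adjusted p = 0.0228). Gpx8, an endoplasmic reticulum member of the family, rose at all 4 durations (1.07, 1.13, 0.92 and 0.86), the last not with animal as a block (0.48, adjusted p = 0.0875). Chac1, which degrades glutathione, fell at all 4 durations, with log2 fold changes of -2.23, -2.07, -1.41 and -2.03 (adjusted p = 0.000229, 0.000462, 0.0157 and 0.000995); its controls spread from 4.22 to 21.9. Reads of the glutathione S-transferases can be shared among near-identical copies, so single members of that family are uncertain.

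Of 14 glutathione S-transferase genes tested in a list of 19, 0 were higher and 5 lower at 2 days, 1 and 3 at 10 days, 1 and 2 at 20 days, and 4 and 2 at 30 days, with list medians of -0.27, -0.09, 0.21 and 0.22. With animal as a block 0 were higher and 3 lower at 2 days and at 10 days. At 20 days 3 were higher and 2 lower in that fit, and at 30 days 1 and 1. On the deposited values 0 were higher and 2 lower at 2 days and 2 and 2 at 30 days. Gstm7 fell at every duration (-0.70, -1.73, -1.29 and -1.14), from 62.3 to 84.5 in controls to 20.5 to 23.8 after 10 days. Gsta1 fell at 2 and 10 days (-1.10 and -0.87), and with animal as a block it was -0.54 at 20 days (adjusted p = 0.0279). Mgst3, a microsomal member, rose at 10, 20 and 30 days (0.38, 0.52 and 0.92; at 10 days 0.46 and adjusted p = 0.0773 with animal as a block) and Mgst2 at 30 days (0.84), the latter not with animal as a block (0.25, adjusted p = 0.606). In the thioredoxin and peroxiredoxin system 14 of 15 listed genes were tested, with 0 higher and 5 lower at 2 days, 0 and 3 at 10 days, 2 and 3 at 20 days and 2 and 2 at 30 days. The list medians were -0.26, -0.11, -0.04 and 0.11. With animal as a block 1 was higher and 2 lower at 2 days, and 1 and 3 at 10 days. In that fit 3 were higher and 1 lower at 20 days, and 0 and 1 at 30 days. On the deposited values 0 were higher and 2 lower at 2 days, and 3 and 2 at 10 days. On that scale there were 2 and 2 at 20 days and 0 and 4 at 30 days. The direction of this list thus depended on the scaling and on the fit. Txnip, which binds and inhibits thioredoxin, was lower at all 4 durations (-0.55, -0.70, -1.01 and -1.03), at 2 days not with animal as a block (-0.42, adjusted p = 0.175). Txnrd2, the mitochondrial counterpart of Txnrd1, was called lower at all 4 durations (-0.50, -0.83, -0.47 and -0.52), and with animal as a block only at 10 days (adjusted p = 0.0655, 0.00344, 0.0610 and 0.0853). Sesn1, a sestrin, fell at 2 and 20 days (-0.86 and -0.45). With animal as a block its adjusted p at 20 days was 0.0675, and it was called lower at 10 days (-0.49, adjusted p = 0.0265). Txnrd3, the third thioredoxin reductase gene, rose at 20 and 30 days (0.53 and 0.36; at 30 days adjusted p = 0.241 with animal as a block).

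**Figure D3:**
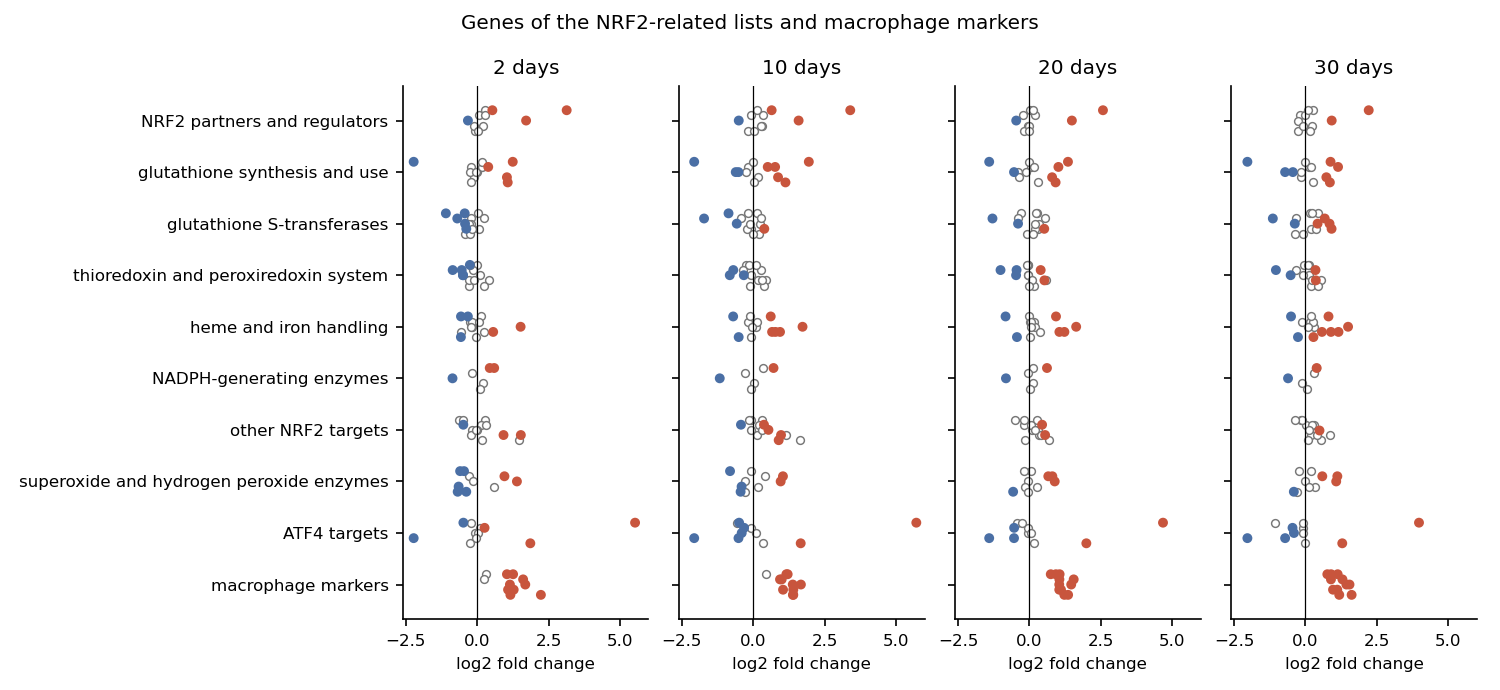
Log2 fold change against the 12 contralateral muscles (horizontal axis) for each tested gene of the lists named on the left, at the 4 durations. Red points passed the adjusted threshold of 0.05 and were higher, blue points passed and were lower, and open points did not pass; in the NRF2-related lists points of both colours stand side by side, while every coloured macrophage marker is red.

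Around the product of HMOX1, heme and iron handling had 14 tested genes of 16 listed, with 2 higher and 3 lower at 2 days, 5 and 2 at 10 days, 4 and 2 at 20 days and 6 and 2 at 30 days, and list medians of -0.18, 0.02, 0.10 and 0.27. Ftl1, the ferritin light chain that stores iron, rose at all 4 durations, with log2 fold changes of 1.52, 1.72, 1.64 and 1.49 (standard error 0.13, adjusted p = 5.80e-09, 7.49e-10, 2.50e-09 and 1.78e-08). Its controls lay between 46.0 and 67.1 and its trained muscles between 132 and 218, with no overlap. Fth1, the heavy chain, was outside the naming rule and chosen after its values were seen; it had log2 fold changes of -0.19, -0.18, 0.01 and 0.25 and did not pass. Tfrc, the transferrin receptor that brings iron in, was higher at 10, 20 and 30 days (0.66, 1.23 and 1.16). With animal as a block it was called lower at 2 days (-0.67, adjusted p = 0.0467). Alas1, the first enzyme of heme synthesis outside red cells, was lower at 2 days (-0.33, adjusted p = 0.0344; -0.39 and adjusted p = 0.0593 with animal as a block) and higher afterwards (0.61, 0.93 and 0.81). Cd163, the hemoglobin scavenger receptor of macrophages and a gene of the macrophage list too, was higher at 10, 20 and 30 days (0.94, 1.05 and 0.89). With animal as a block it was called higher at 2 days as well (0.59, adjusted p = 0.0256).

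NADPH feeds both glutathione and thioredoxin reductases, and 2 enzymes that serve its supply moved in opposite directions. Me1, the cytosolic malic enzyme and a known NRF2 target, fell at every duration (-0.87, -1.18, -0.82 and -0.61), from 108 to 133 in controls to 48.1 to 54.1 after 10 days. Tkt, transketolase, rose (0.59, 0.71, 0.62 and 0.39), at 30 days not with animal as a block (0.37, adjusted p = 0.113). Of 14 tested genes among 16 other NRF2 targets, 2 were higher and 1 lower at 2 days, 4 and 1 at 10 days, 2 and 0 at 20 days and 1 and 0 at 30 days, with list medians of 0.08, 0.30, 0.23 and 0.20. In either direction 28.9%, 28.9%, 21.4% and 20.6% of all genes were called at these durations. With animal as a block 3 were called at 10 days and 2 at 30 days. At 20 days 1 was higher and 1 lower in that fit. The lower gene was Abcc1 (-0.79, adjusted p = 0.0364), outside the naming rule. On the deposited values 0 were called at 30 days. Ugdh, which makes the sugar acid for glucuronidation and for matrix polymers, rose at 2, 10 and 20 days (0.92, 0.97 and 0.55; at 20 days adjusted p = 0.0525 with animal as a block). Mt1, a metallothionein, rose at 2 days (1.53), and Cbr1 and Akr1b8, which reduce carbonyl compounds, rose at 10 days (0.89 and 0.53).

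The enzymes that make or remove superoxide and hydrogen peroxide had 10 tested genes of 12 listed, with 2 higher and 5 lower at 2 days, 2 and 3 at 10 days, 3 and 1 at 20 days and 3 and 1 at 30 days, and list medians of -0.33, -0.18, 0.00 and 0.15. With animal as a block 3 were higher and 5 lower at 2 days, and 2 were called at 30 days. On the deposited values 2 were higher and 1 lower at 10 days and 2 and 2 at 30 days. Sod3, Sod2 and Cat, outside the naming rule and chosen after their values were seen, were lower at 2 days with animal as a block. Their values were -0.76, -0.65 and -0.44 (adjusted p = 0.000847, 0.00321 and 0.0438), while Sod1 did not pass (-0.16, adjusted p = 0.444). Cybb and Cyba, the membrane subunits of the phagocyte NADPH oxidase, were higher at all 4 durations (1.39, 0.96, 0.89 and 1.08 for Cybb). For Cyba the values were 0.95, 1.04, 0.80 and 0.59, the last not with animal as a block (0.73, adjusted p = 0.0849). Ncf1, a cytosolic subunit of the same oxidase, was lower at 2 and 10 days (-0.60 and -0.82). With animal as a block its 10-day value did not pass (-0.37, adjusted p = 0.0922), while its 20-day value did (-0.53, adjusted p = 0.0228). Selenop, the plasma selenium carrier, was higher at 20 and 30 days (0.66 and 1.12). With animal as a block it was called higher at 10 days as well (0.65, adjusted p = 0.00571). The ATF4 list, whose factor shares targets such as Slc7a11 with NRF2, had 11 tested genes of 16, with 3 higher and 2 lower at 2 days, 2 and 5 at 10 days, 2 and 3 at 20 days and 2 and 4 at 30 days. Its medians were -0.06, -0.32, -0.05 and -0.09, and 3 were called at 2 days with animal as a block. Chac1 and Slc3a2 stood in this list and in the glutathione list. Atf3 rose most of them, with log2 fold changes of 5.53, 5.71, 4.68 and 3.98, from 1.28 to 12.6 in controls to 184 to 350 after 2 days. Ddit3 (CHOP) rose too (1.86, 1.66, 2.00 and 1.29). Slc3a2, the partner chain of the cystine carrier SLC7A11, fell at 10, 20 and 30 days (-0.52, -0.54 and -0.71; at 20 days -0.34 and adjusted p = 0.0935 with animal as a block).

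Markers of some other cell types also differed between trained and control muscles. Of 14 macrophage markers 13 had a row and 11 were tested, and 9, 10, 11 and 11 were called higher at the successive durations, with none lower and medians of 1.16, 1.20, 1.06 and 1.13. With animal as a block 11, 9, 11 and 11 were called higher, and with time-matched controls 9, 8, 7 and 7. Lyz2, the macrophage lysozyme, had log2 fold changes of 2.23, 1.40, 1.36 and 1.62, Cd68, a lysosomal protein, 1.68, 1.38, 1.05 and 1.54, and C1qa, a chain of complement C1q, 1.14, 1.67, 1.47 and 1.44. The summed level of the list was 19.2 to 47.3 in controls, 72.7 to 182 at 2 days, 60.3 to 130 at 10 days, 85.0 to 98.1 at 20 days and 83.9 to 110 at 30 days, with no overlap between trained and control muscles. No marker of the list with a row was at 0 in all 24 muscles; Adgre1, a macrophage surface receptor, stood at 0.0764 to 0.734 in controls and at 0.290 to 1.82 in trained muscles, and Itgam and Ptprc lay below the filter. Among 8 fibroblast markers tested 6, 7, 7 and 7 were higher, led by Col1a1 and Col3a1, and their sum was 79.4 to 268 in controls and 313 to 1017 in trained muscles. With animal as a block 7, 7, 6 and 5 fibroblast markers were higher, and with time-matched controls 6, 6, 6 and 3. Endothelial markers were called in 1, 3, 5 and 3 of 8 tested, the first lower, though not with animal as a block, and the others higher. On the deposited values 0 endothelial markers were called at 2 and 30 days, and with time-matched controls 1 was called at each of 10 and 30 days. Red blood cell markers were called in 0 of 6 tested at each duration; their sum was 399 to 1229 in controls and 382 to 893 in trained muscles. No neutrophil marker of 3 with a row passed the filter. All 12 skeletal muscle fibre markers were tested and their sum was the highest of the 6 marker lists in every muscle; 1 was higher and 5 lower at 2 days, 3 and 5 at 10 days, 2 and 6 at 20 days and 1 and 6 at 30 days. Pvalb and Actn3 of fast fibres were lower at all 4 durations. Des, which encodes desmin, was higher at 2, 10 and 20 days (0.90, 0.98 and 0.59). Mb, myoglobin, was lower at 2 days (-0.64) and higher later (0.57, 0.74 and 0.65), and Acta1, skeletal actin, was higher at 10 days (0.41, adjusted p = 0.0202; 0.43 and adjusted p = 0.0654 with animal as a block). The 3 muscles trained for 10 days had the 3 highest Hmox1 values, 42.5, 25.8 and 26.4. Their macrophage sums were 130, 112 and 60.3, and their fibroblast sums were 1017, 625 and 539. Replicate 2 of the 2-day group had the highest macrophage sum, 182, with 20.2 for Hmox1. The part of these other cells in the results for Hmox1 and the NRF2 targets was not tested.

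**Figure D4:**
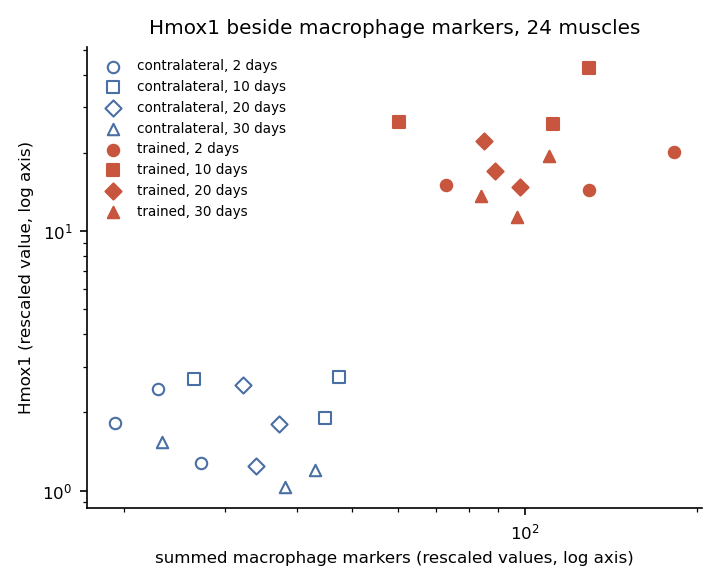
Rescaled value of Hmox1 (vertical, log axis) against the summed rescaled values of the macrophage markers (horizontal, log axis) in each of the 24 muscles. Open symbols are contralateral and filled symbols trained muscles, with 1 shape per duration; the 2 groups stand apart on both axes, with controls at or below 2.75 for Hmox1 and 47.3 for the marker sum.

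The genes whose pattern was most like that of Hmox1 were found by Pearson's r of log2 values over the 24 muscles, given as a description; all genes share the same libraries, and the muscles fall into trained and control clusters. The 5 highest were Rab7b (r = 0.975), a small GTPase of late endosomes, Bgn (0.975), the matrix proteoglycan biglycan, LOC100360087 (0.970), Ftl1 (0.967) and Lgals3 (0.967), a galectin abundant in macrophages. RefSeq gives Ftl1 as a synonym of LOC100360087, so reads may have been split between near-identical copies and both values are uncertain. Over the 12 trained muscles alone the same genes had r of 0.787, 0.845, 0.731, 0.667 and 0.482. The other members stood further off: over 24 muscles r was 0.752 for Nfe2l2, 0.685 for Gclc, 0.386 for Txnrd1, -0.280 for Gclm and -0.617 for Nqo1. Over the trained muscles alone these were -0.322, 0.188, -0.0171, -0.506 and -0.492. All 5 most correlated genes had their highest mean after 10 days, like Hmox1, and they were chosen by their correlation with it in these muscles. For Bgn that mean was 43.4 against 5.64 in controls.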

How the data were processed

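The authors made poly-A selected, directional libraries from 24 tibialis anterior muscles and sequenced them with paired reads. The authors trimmed reads, aligned them with STAR in Partek Flow to Rnor_6.0 (rn6) and deposited TPM-type values for 20027 Ensembl transcripts; the versions that the study's methods state are not repeated here. The submitters' notes also name DESeq2, but the columns share 1 total, so no counts or depth remain and no count model was run here. The authors also deposited 2 gene-level tables, 1 of them with fold changes and p-values of their own comparisons; neither was used.

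Transcript values were divided by median-of-ratios factors (computed on 16230 transcripts with no value of 0) and summed per gene. Genes that reached 1 in 3 or more muscles were kept. A model with 5 groups was fitted to log2(value + 1) (R 4.3.3, limma 3.58.1), two-sided, with Benjamini-Hochberg adjustment over 11196 genes and a threshold of 0.05. Fits were checked on simulated data. Python 3.11.15, numpy 2.4.6, pandas 2.3.3 and matplotlib 3.10.9 made tables and plots.

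The members and the 15 gene lists were chosen with earlier results of these data known. Named genes are all members, up to 4 genes per list past the threshold at any duration with the largest absolute change, defining markers, and the 5 genes most correlated with Hmox1. Of 276 pairs of libraries 0 were identical. The labels tie both muscles to 1 animal, and deviations from group means correlated within animals (median r 0.174, lowest 0.0277, 12 pairs). Between animals of a duration the median was -0.100. Deviations in a group cancel out by construction, so that median is not an independent baseline. The series' design text names more animals per time point than the 3 with samples here; others were not analysed here. The labels name no batch. The results of 1 listed gene, and the counts of its list, are not reported here. Promoter windows came from RefSeq (GRCr8), for 7 of the 8 members, and were not joined with Rnor_6.0 coordinates. Alternatives were the values as deposited, a pseudocount of 0.1, no filter, animal as a block, time-matched controls, the highest transcript per gene, an intensity trend, a threshold of 0.01 and each muscle left out in turn.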

Additional observations from a re-analysis of the deposited data

Results flagged for a closer look

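Members whose level in trained muscle differed between durations of training were flagged from limma contrasts between trained groups. These contrasts compare trained muscles alone. For the change against the contralateral muscle of the same animal, no member differed between durations at the threshold. Gclc was lower at 30 than at 2 days (log2 difference -0.53, standard error 0.13, adjusted p = 0.00836), and the value was -0.63 with animal as a block (adjusted p = 0.0619). It was also lower at 20 than at 2 days (-0.48, adjusted p = 0.0268; -0.44 and adjusted p = 0.181 with animal as a block). With 1 trained muscle left out at a time, the first lost its call without replicate 2 of the 2-day group (-0.40, adjusted p = 0.0891). The second lost it in 4 of 6 fits, without replicates 2 and 3 of the 2-day group (-0.34 and -0.47, adjusted p = 0.200 and 0.0833) and replicates 1 and 2 of the 20-day group (-0.40 and -0.47, adjusted p = 0.122 and 0.0606). Nfe2l2 was higher at 30 than at 2 days (0.35, adjusted p = 0.0369; 0.37 and adjusted p = 0.202 with animal as a block), and with a muscle left out it was called in 1 of 6 fits, without replicate 1 of the 2-day group, with differences of 0.28 to 0.41 and adjusted p of up to 0.191. Hmox1 was lower at 30 than at 10 days (-1.04, adjusted p = 0.0206; -0.43 and adjusted p = 0.619 with animal as a block), and it lost its call without replicate 1 of the 10-day group (-0.81, adjusted p = 0.137) or replicates 1 and 3 of the 30-day group (-0.998 and -0.88, adjusted p = 0.0559 and 0.101). Groups of 3 or 12 muscles were too small or too large for the test of single outlying samples.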

How the results depend on the processing

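For Hmox1 all 92 values under the alternatives stayed called and higher, between 2.26 and 4.05 on the log2 scale; the highest was the 10-day value with a pseudocount of 0.1. The number of members called at 2 days fell from 4 to 2 with the replicate block, with time-matched controls, with the highest transcript per gene and at a threshold of 0.01, and was 2 to 4 with 1 muscle left out. Leaving out 1 muscle gave 3 to 5 at 10 days, 2 to 3 at 20 days and 2 at 30 days.

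Between trained groups, the count at 30 against 2 days went from 2 to 0 with the replicate block and to 1 at a threshold of 0.01, and was 0 to 2 with a muscle left out. At 20 against 2 days it went from 1 to 0 with the replicate block and at a threshold of 0.01, and was 0 to 1 with a muscle left out. At 30 against 10 days it went from 1 to 0 with the replicate block, a pseudocount of 0.1 and a threshold of 0.01, to 2 on the values as deposited, and was 0 to 1 with a muscle left out. The replicate block, which pairs the muscles of an animal, changed no member call other than those given beside the results.

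Directions that turned belonged to changes that had not passed. At 2 days, Nqo1 was 0.066 on the deposited values and ran from -0.18 to 0.073 with a muscle left out. Gclm at 2 days was 0.042 on the deposited values and 0.057 with the replicate block or time-matched controls, and ran from -0.13 to 0.030 with a muscle left out. At 20 days, with a muscle left out, Gclm ran from -0.20 to 0.13 and Txnrd1 from -0.084 to 0.038. At 30 days the deposited values gave -0.028 for Gclm, -0.016 for Gclc and -0.13 for Txnrd1; relative to the shifted median of all genes these were 0.15, 0.16 and 0.05. In the main fit 3235, 3240, 2393 and 2304 of all genes were called at the successive durations. With the replicate block these counts were 2417, 2252, 1944 and 1377, and with time-matched controls 2196, 2007, 1589 and 1121. The cause of these differences was not tested. Of the 60 list counts, those within 1.5 times the reported count numbered 51 on the deposited values, 59 with a pseudocount of 0.1, 59 with no filter, 49 with the replicate block, 39 with time-matched controls, 56 with the highest transcript and 60 with the intensity trend. The neutrophil counts are among these 60, and with 0 genes tested they could not change where the same genes were kept. The red blood cell counts of 0 are also included.

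With 3 trained muscles per duration and no depth in the files, a difference near the spread between animals could not be resolved: the 95% interval of Gclm at 30 days ran from -0.08 to 0.43. Bulk tissue does not separate fibres from other cells, and a transcript level is not a protein level.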
